A study of Mus musculus with 28 samples.

Results

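The Ifi200 genes described here are 7 neighbouring mouse genes, Ifi203, Ifi204, Ifi205, Ifi207, Ifi209, Ifi211 and Mndal, taken by name from a table of 54532 genes. The rule names the genes and sets no threshold on a measured value, and they were named with earlier results of these data known. Their RNA was counted in 28 cultures of bone marrow-derived macrophages (BMDMs), which are macrophages grown from mouse bone marrow in macrophage colony-stimulating factor (M-CSF). According to the study's methods the marrow came from mice of a C57 black strain. The labels add that the medium given with the agonists contained calcium chloride. Control cultures received phosphate-buffered saline (PBS). VWF cultures received plasma-derived von Willebrand factor (pd-VWF), a large plasma glycoprotein that tethers platelets to injured vessel walls, at 10 µg/ml. LPS cultures received lipopolysaccharide, a component of the outer membrane of Gram-negative bacteria and a ligand of Toll-like receptor 4, at 100 ng/ml. RNA was taken after 3.5 h or 16 h, from 5 control, 5 VWF and 4 LPS cultures at each time. The labels call the cultures of a group biological replicates and do not say whether they came from separate mice, so p values measure the spread between these cultures.

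The Ifi200 genes belong to the HIN-200 or PYHIN family. Most of its proteins pair an N-terminal pyrin domain, which binds other pyrin domains, with 1 or more C-terminal HIN domains that bind DNA. The family is known for sensing DNA in the cytosol and nucleus and for transcription that is raised by interferon. In macrophages, Toll-like receptor 4 leads to secretion of interferon-β, whose signal reaches its target genes through interferon-stimulated response elements (ISREs) in their promoters. Aim2, a further family member, joins DNA in the cytosol to the adaptor Asc (Pycard) and caspase-1 in an inflammasome.

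The sequencing depth was 41131209 to 77699206 counts per culture (median 52986574). Levels are given as CPM, the counts of a gene relative to the total of its library, scaled by TMM factors of all 28 cultures, and those factors were between 0.735 and 0.848 in LPS cultures and between 0.945 and 1.18 in control cultures. All 8 macrophage markers were above 1 CPM in at least 1 culture, with a sum between 5160 and 26040 CPM per culture. The summed macrophage markers were between 18710 and 26040 CPM in VWF cultures at 16 h and at most 16460 CPM in every other group, and the part of this difference in the family's values was not tested. The markers of B cells (4 genes), T cells (4), NK cells (3), erythroid cells (2) and mast cells (2) summed to at most 14.2 CPM in any culture, and the NK cell gene Gzma and the mast cell gene Mcpt4 were at 0 throughout. The 5 neutrophil markers summed to between 3.09 and 31.3 CPM and the 3 fibroblast markers to between 16.3 and 382 CPM, with overlapping ranges in all 6 groups for the fibroblast markers.

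Among markers of other cells, Xcr1 of the 4 dendritic cell genes was higher with both agonists at 3.5 h. The 4 genes summed to between 1.21 and 1.85 CPM in control, 13.6 and 19.3 CPM in VWF and 21.6 and 27.1 CPM in LPS cultures at 3.5 h. At 16 h the sums were between 0.611 and 1.95, 0.915 and 2.91, and 12.9 and 29.9 CPM. The sums of VWF and control cultures thus overlapped at 16 h. Xcr1 had 0.241 to 0.689 CPM in control, 9.92 to 15.7 CPM in VWF and 20.3 to 25.4 CPM in LPS cultures at 3.5 h. Zbtb46 had 0.644 to 1.25 CPM in control, 2.503 to 3.42 CPM in VWF and 1.21 to 2.38 CPM in LPS cultures at that time. It was thus wholly above control with VWF and overlapped with control with LPS. Flt3 and Siglech were at most 0.205 and 0.504 CPM in any culture. Whether these values reflect dendritic cells, and what part such cells would have in the family's values, was not tested.

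All 7 genes lie on chromosome 1 of GRCm38 in one cluster with Aim2, Ifi202b, Ifi206, Ifi208, Ifi213, Ifi214 and the pseudogene Ifi203-ps. Ifi209 (ENSMUSG00000043263) spans chr1:173630917-173647928 and is the only member of the 7 transcribed from the plus strand. Ifi207 (ENSMUSG00000073490) follows at chr1:173723427-173741747, and Ifi204 (ENSMUSG00000073489) at chr1:173747293-173766943. Ifi211 (ENSMUSG00000026536) at chr1:173896345-173913046 lies within the annotated span of Mndal (ENSMUSG00000090272), which runs from chr1:173849126 to 173942491. Ifi203 (ENSMUSG00000039997) at chr1:173920407-173942672 overlaps the same span, and Ifi205 (ENSMUSG00000054203) at chr1:174011998-174031810 closes the cluster. The annotation gives Mndal 10 transcripts, Ifi203 9 and Ifi211 a single one.

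**Figure D1:**
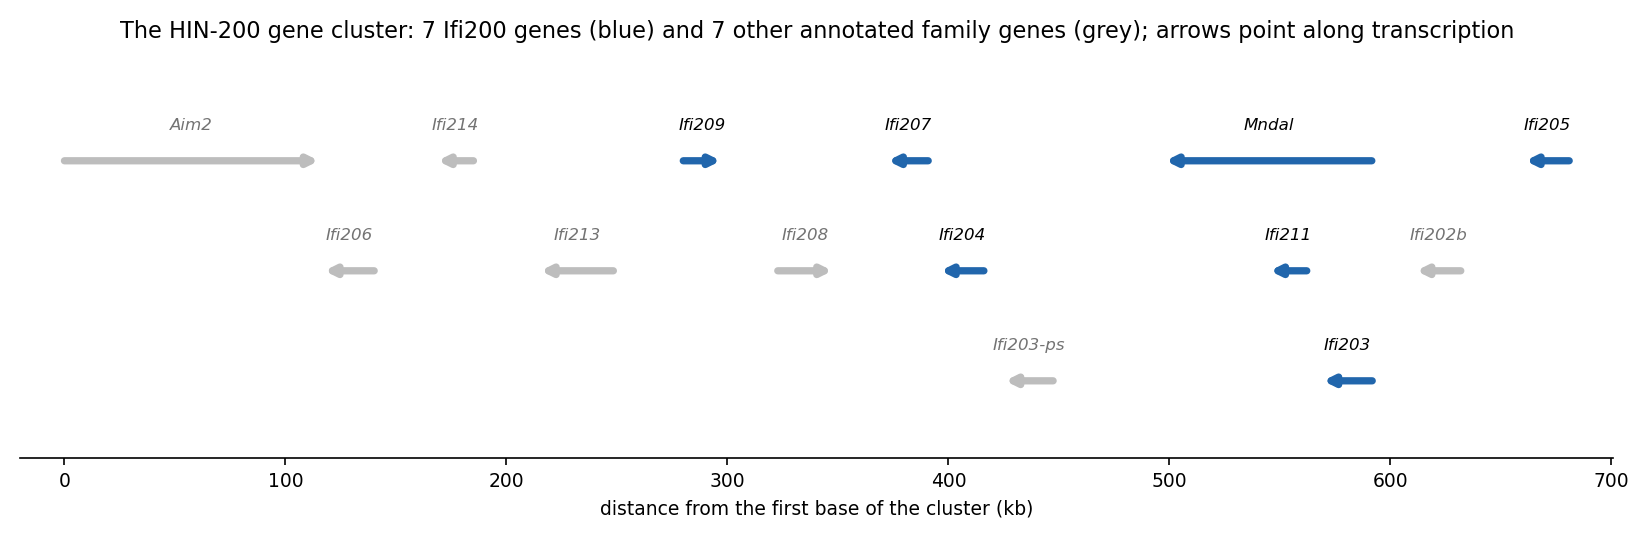
Positions of the 14 annotated HIN-200 genes, with the horizontal axis giving the distance in kb from the first base of Aim2. Arrows span each gene and point along its transcription, blue for the 7 Ifi200 genes described here and grey for the rest, and the spans of Ifi211 and Ifi203 overlap that of Mndal.

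RefSeq promoters of GRCm38.p6, from 250 bases before to 50 bases after an annotated start, were given for 6 of the 7 members, without an entry for Ifi204. The ISRE core GAAANNGAA, searched on both strands, was found before the start of 5 members (Ifi203, Ifi205, Ifi207, Ifi211 and Mndal), and in 8.56% of 32851 mouse promoters. This share counts promoters, and Ifi203 and Mndal have 2 promoters each, of which the first of Ifi203 held no match. Matches on the opposite strand, not shown, lay after the start of Ifi205 (24 to 32) and in the second promoter of Mndal (-53 to -45). The stretches around the matches on the transcribed strand are shown because they can be compared base by base between the members. The ISRE core is in capitals, and all are written 5' to 3' along the minus strand, from which these 5 genes are transcribed.
Ifi203, chr1:173942504-173942542, first capital at -35: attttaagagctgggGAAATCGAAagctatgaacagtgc
Mndal, chr1:173880200-173880238, first capital at -36: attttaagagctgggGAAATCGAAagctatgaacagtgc
Ifi211, chr1:173913060-173913098, first capital at -37: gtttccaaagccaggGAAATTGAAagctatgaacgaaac
Ifi205, chr1:174031866-174031904, first capital at -134: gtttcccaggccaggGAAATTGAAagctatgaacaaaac
Ifi207, chr1:173741827-173741865, first capital at -41: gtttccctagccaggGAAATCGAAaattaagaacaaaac

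The Ifi203 and Mndal stretches did not differ at any of the 39 bases, and those of Ifi205 and Ifi211 differed at 3. Ifi203 differed from Ifi205 at 12, from Ifi207 at 13 and from Ifi211 at 11 bases. The promoter of Ifi209 held no ISRE core. Its stretch closest to the one of Ifi214, the gene with which its transcripts share sequence, is shown on the plus strand with the bases at the place of the core in capitals.
Ifi209, chr1:173630765-173630803, first capital at -79: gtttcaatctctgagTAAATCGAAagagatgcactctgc

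Going from Ifi214 to Ifi209, and counting from 1 at the 5' end of the stretch, the 3 substitutions were G7A, G16T and C27A, and G16T lies in the core. Matches to an NF-κB motif occurred in the promoters of Ifi203 and Ifi209 and in 8.46% of all promoters. The gamma-activated site (GAS) motif TTCNNNGAA, named for its role in the response to interferon-γ, was found in none of the members' promoters and in 8.30% of all promoters. A match describes the letters only, and binding was not measured.

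Because these genes arose by duplication, the sequence they share limits how reads can be assigned. Of the 100-base windows of Ifi211 transcripts, 56.9% also occur in transcripts of another gene, 37.2% in Ifi205, 19.6% in Ifi204 and 6.41% in Mndal. The shared part was 16.9% for Ifi209, all of it with Ifi214, 15.04% for Ifi205 and 10.7% for Ifi204. It was 6.38% for Mndal, 2.84% for Ifi203 and 0.790% for Ifi207. How reads that map to several places were counted is not given in the sources used here, so the level of Ifi211 is uncertain, and part of it may be reads of Ifi205 or Ifi204 or be missing. Exons of Ifi203 and Mndal overlap by 37 bases on the same strand, 0.552% of the exon length of Ifi203 and 1.02% of that of Mndal. A further 118 bases of Mndal overlap the model Gm38050 on that strand.

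**Figure D2:**
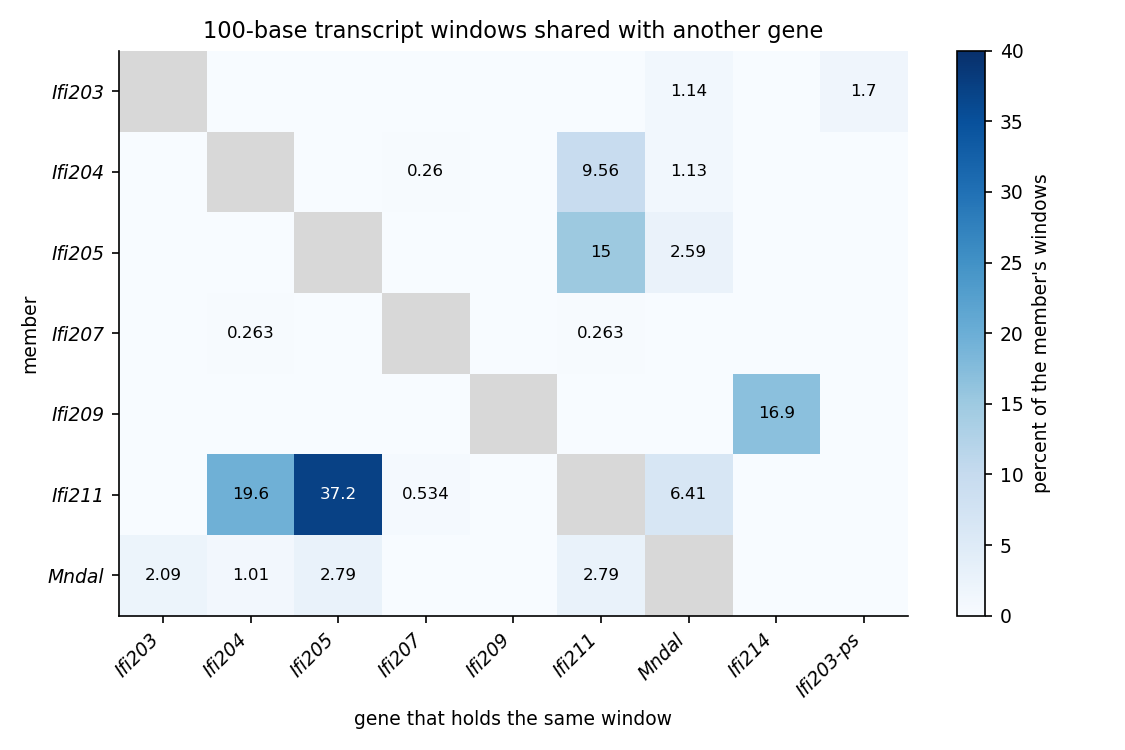
Percent of each member's 100-base transcript windows (rows) that also occur in transcripts of the gene in the column, on the colour scale at the right, with empty cells at 0. The highest value, 37.2%, is for Ifi211 windows found in Ifi205, and Ifi203 and Ifi207 hold less than 3% in any column.

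In control cultures the members differed widely in level. To compare genes, levels are given per kb of exon, and their order depends on the length used. The length was that of the merged exons of all annotated transcripts, 6706 bases for Ifi203 with 9 transcripts and 1785 for Ifi211 with 1. Ifi204 had 31.6 ± 4.06 and Ifi207 30.1 ± 2.20 CPM per kb at 3.5 h (SD, n = 5), and the cultures of these 2 genes overlapped. Ifi211 followed at 20.1 ± 3.36, Mndal at 11.5 ± 1.25, Ifi203 at 4.73 ± 1.08, Ifi209 at 3.65 ± 1.33 and Ifi205 at 0.832 ± 0.429 CPM per kb. Ifi204 encodes p204, often treated as the mouse counterpart of the human DNA sensor IFI16. At 16 h the order of levels in control cultures was Ifi207, Ifi204, Ifi211, Mndal, Ifi209, Ifi203 and Ifi205. In LPS cultures at 3.5 h, Ifi211 had 506 ± 33.8 and Ifi204 360 ± 19.7 CPM per kb (SD, n = 4), with Ifi203 last at 150 ± 12.8. The rank of Ifi211 is subject to its shared sequence. In CPM without length, Ifi203 (1005 ± 85.5) was above Ifi211 (904 ± 60.2) in these cultures. The level of Ifi205, last in control cultures, ranked above those of Mndal, Ifi207 and Ifi203 in LPS cultures at both times, at 326 ± 33.8 and 307 ± 29.4 CPM per kb.

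Summed over the 7 genes, the level was 341 ± 28.8 CPM in control, 2264 ± 350 in VWF (SD, n = 5) and 7409 ± 365 CPM in LPS cultures (SD, n = 4) at 3.5 h. At 16 h the sums were 325 ± 41.9, 935 ± 136 and 6804 ± 507 CPM. The VWF sum was thus lower at 16 h than at 3.5 h, with cultures between 698 and 1047 against 1770 and 2728 CPM, while the LPS cultures overlapped (6212 to 7449 and 6966 to 7735 CPM). Ifi204 and Ifi207 made up 33.0% and 30.2% of the sum in control cultures at 3.5 h. In LPS cultures at 16 h, Ifi209 had the largest share and Ifi207 the smallest with 5.24%.

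The first comparison asked how VWF changed the RNA of macrophages after 3.5 h. All 7 Ifi200 genes were called higher with VWF than in control cultures, where a call needs an adjusted p under 0.05 and a change of more than 2-fold in edgeR's quasi-likelihood test. Of all 8200 genes tested, 9.18% were called higher. The changes ran from 2.61-fold for Ifi207 to 83.9-fold for Ifi205, and the median log2 fold change was 3.41 over the members and 0.00 over all genes tested. In bulk RNA, fewer cells of a type and less RNA per cell cannot be told apart, and the same holds for increases.

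Ifi205 encodes p205, known to act on the expression of the adaptor Asc. Its level at 3.5 h was 4.51, 5.98, 2.10, 3.17 and 1.61 CPM in control replicates 1 to 5, and 223, 342, 296, 339 and 228 CPM in VWF replicates 1 to 5. Every VWF culture lay far above every control culture. This was a log2 fold change of 6.39 (SE 0.37, adjusted p = 9.45e-08). Ifi205 reached at most 4.40 TPM in control cultures and passed the filter of 10 TPM through the treated cultures alone, so it could enter the test only by being higher with treatment.

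Ifi203, whose protein carries a pyrin and a HIN domain, had 28.7, 34.3, 24.9, 43.1 and 27.6 CPM in the control replicates. With VWF it had 383, 402, 457, 521 and 608 CPM, a 15.3-fold higher level (log2 fold change 3.93, SE 0.19, adjusted p = 2.15e-08). Ifi209 rose 16.5-fold from a lower level, with 7.37 to 18.8 CPM in control and 150 to 300 CPM in VWF cultures (log2 fold change 4.04, SE 0.29). Ifi211 rose 10.6-fold (3.41, SE 0.15), subject to its shared sequence, and Mndal, named for its likeness to the human myeloid nuclear differentiation antigen, rose 6.14-fold (2.62, SE 0.13).

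Ifi204 and Ifi207, the members with the highest control levels, changed least. Ifi204 rose 3.69-fold, from 96.9 to 132 CPM in control to 307 to 502 CPM in VWF cultures (log2 fold change 1.88, SE 0.13). Ifi207 had 93.4, 100.2, 103, 114 and 105 CPM in control and 209, 239, 277, 295 and 300.2 CPM in VWF replicates (1.38, SE 0.10, adjusted p = 6.44e-07). No VWF culture overlapped with a control culture for any of the 7 genes, and 18.01% of all genes tested lay wholly above control in this way. VWF replicate 1 had the lowest level of all 7 members in its group, and without it all 7 calls held.

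**Figure D3:**
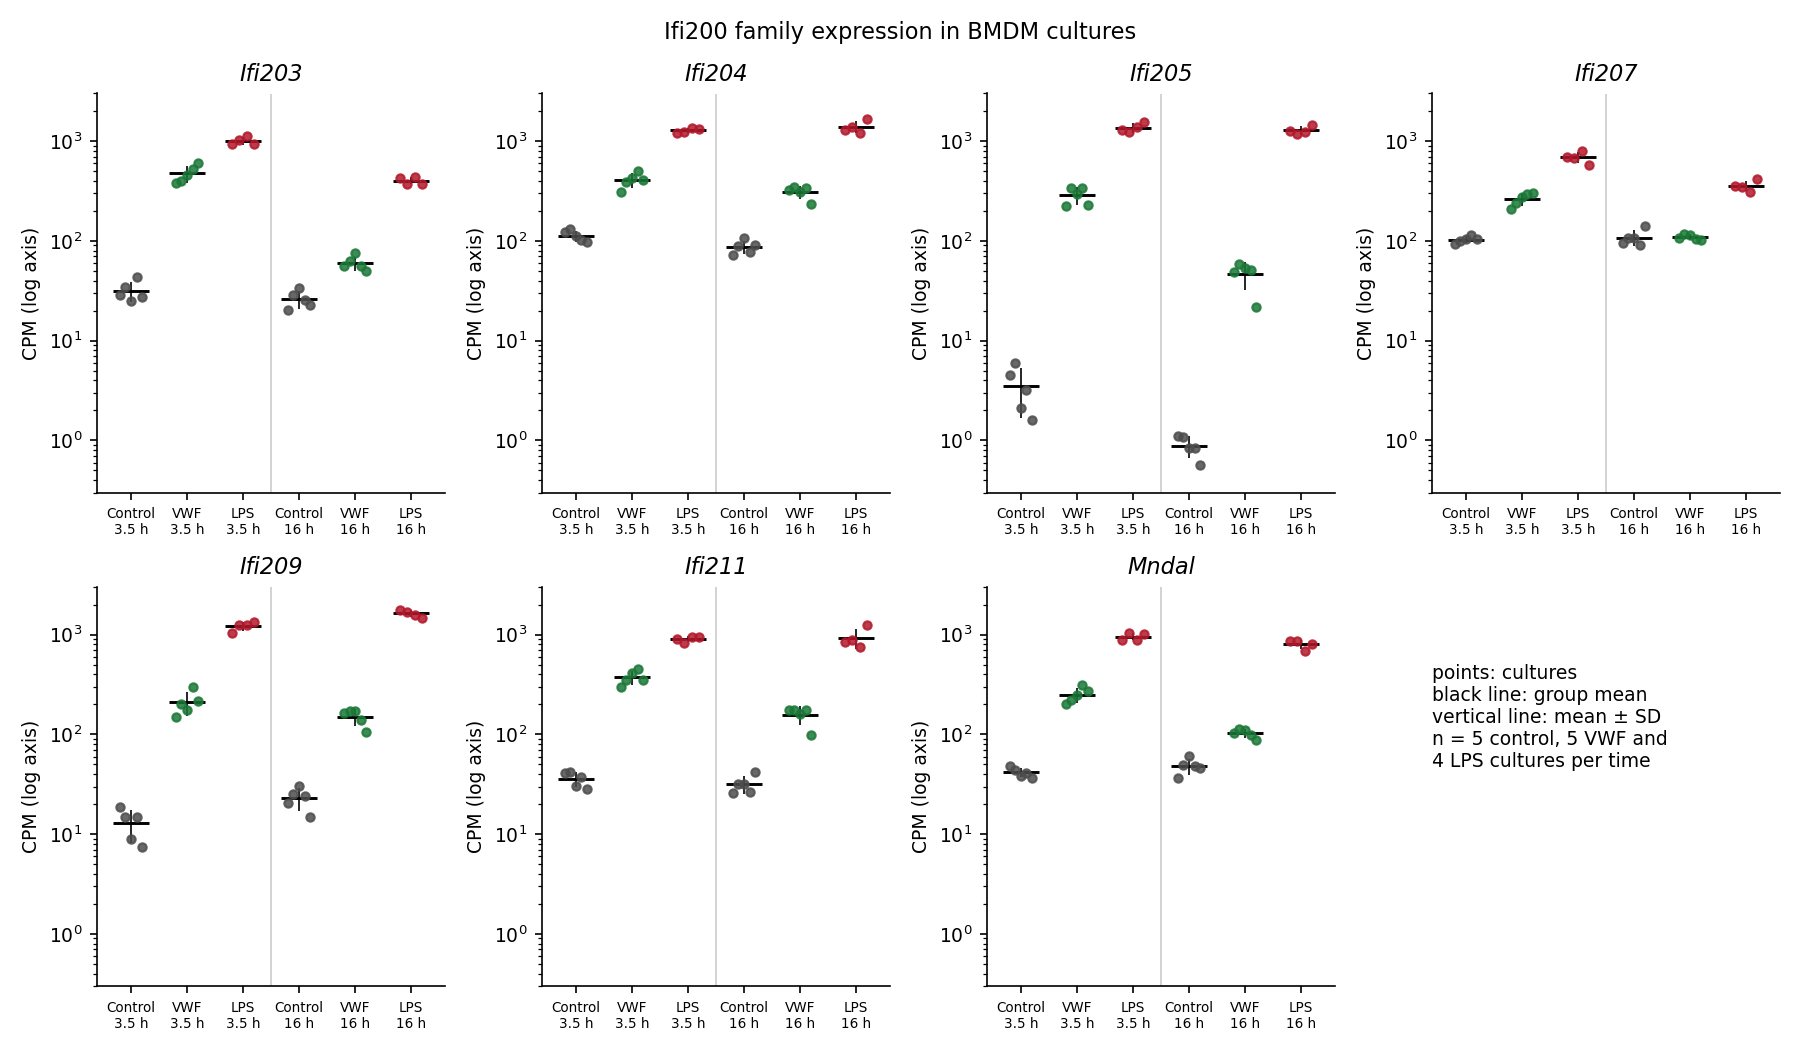
CPM of each member on a log axis in the 6 groups, with 1 point per culture, the group mean as a black line and mean ± SD as a vertical line (n = 5 control, 5 VWF and 4 LPS cultures per time). VWF and LPS cultures lie above the control cultures of the same time in every panel except for Ifi207 at 16 h, where VWF (102 to 118 CPM) and control cultures (90.7 to 140 CPM) overlap.

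The second comparison set LPS, the bacterial agonist, against the same control cultures at 3.5 h, so the VWF and LPS values share their controls. All 7 genes were called higher, against 12.8% of 8190 genes tested, and the median log2 fold change was 4.68 over the members and -0.02 over all genes. Ifi205 rose 397-fold, with 1280, 1233, 1377 and 1552 CPM in the LPS replicates (log2 fold change 8.63, SE 0.40). As with VWF, it passed the filter through the treated cultures alone and could enter only by being higher. Ifi209 rose 95.2-fold to 1216 ± 124 CPM (6.57, SE 0.29) and Ifi203 32.2-fold to 1005 ± 85.5 CPM (5.01, SE 0.17). Ifi211 rose 25.6-fold, Mndal 23.3-fold, Ifi204 11.5-fold and Ifi207 6.77-fold, with adjusted p between 1.84e-10 and 9.14e-09 over the 7 genes.

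A direct test of the agonists at 3.5 h gave lower levels with VWF than with LPS for all 7 members, against 6.71% of 7500 genes tested that were called lower. The agonists differ in substance and dose, and the sizes describe these doses only. Ifi209 was 5.73-fold and Ifi205 4.69-fold higher with LPS than with VWF. Ifi203 differed least, 2.09-fold (log2 fold change of VWF against LPS -1.06, SE 0.14, adjusted p = 1.07e-04), and Ifi211 differed 2.39-fold (-1.26, SE 0.12). When libraries were scaled by their totals alone, these last 2 fell to -0.78 and -0.97, still with VWF lower and under the 2-fold threshold, which left 5 of the 7 calls. Tested against a change of 2-fold, the same 2 calls were lost (adjusted p = 1.0 for Ifi203 and 0.12 for Ifi211). Every VWF culture was below every LPS culture for each of the 7 genes, as for 19.27% of all genes tested.

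After 16 h, 6 of the 7 members were called higher with VWF than in control cultures, against 4.55% of 7798 genes tested. Ifi207 was the exception. Its level was 94.2, 108, 108, 90.7 and 140 CPM in control replicates and 107, 118, 115, 104 and 102 CPM in VWF replicates, so that the groups overlapped (log2 fold change 0.01, SE 0.11, adjusted p = 0.954). The 95% interval of this value ran from -0.21 to 0.23.

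Ifi205 stood furthest above control in the same cultures, 52.1-fold (log2 fold change 5.70, SE 0.32), with 48.2, 59.2, 53.8, 50.8 and 22.0 CPM against 0.561 to 1.11 CPM in control cultures. It reached at most 0.816 TPM in control cultures at 16 h, so here too it could enter the test only by being higher. Ifi209 was 6.47-fold higher (2.69, SE 0.21) and Ifi211 4.97-fold (2.31, SE 0.19). Ifi204 was 3.52-fold higher (1.82, SE 0.14), close to its value at 3.5 h. Ifi203 and Mndal were near the threshold, 2.28-fold (1.19, SE 0.16, adjusted p = 2.42e-04) and 2.12-fold higher (1.08, SE 0.13, adjusted p = 1.14e-04). Tested against a change of 2-fold instead of 0, these 2 calls were lost, with adjusted p of 0.628 and 1.0. VWF replicate 5 had the lowest level of all 7 members in its group, and without it 6 members were still called.

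With LPS at 16 h all 7 members were called higher than in control cultures, against 15.3% of 7994 genes tested. Ifi205 had 1260, 1181, 1224 and 1458 CPM and a change of 10.53 on the log2 scale (SE 0.25). This 1481-fold difference rests on 29 to 91 counts of Ifi205 per control culture, and Ifi205 again passed the filter through the treated cultures alone. Ifi209 had 1783, 1694, 1583 and 1471 CPM, 72.8-fold above control. Ifi207 again changed least, 3.39-fold to 357 ± 43.9 CPM (1.76, SE 0.15). VWF against LPS at 16 h gave lower levels with VWF for all 7 members, against 14.5% of genes tested, and the LPS levels were from 3.25-fold (Ifi207) to 27.3-fold higher (Ifi205). No treated culture overlapped with a control culture of its time for any member, apart from Ifi207 with VWF at 16 h. Of all genes tested, 26.09% lay wholly above control with LPS at 3.5 h, 12.67% with VWF at 16 h and 23.52% with LPS at 16 h.

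**Figure D4:**
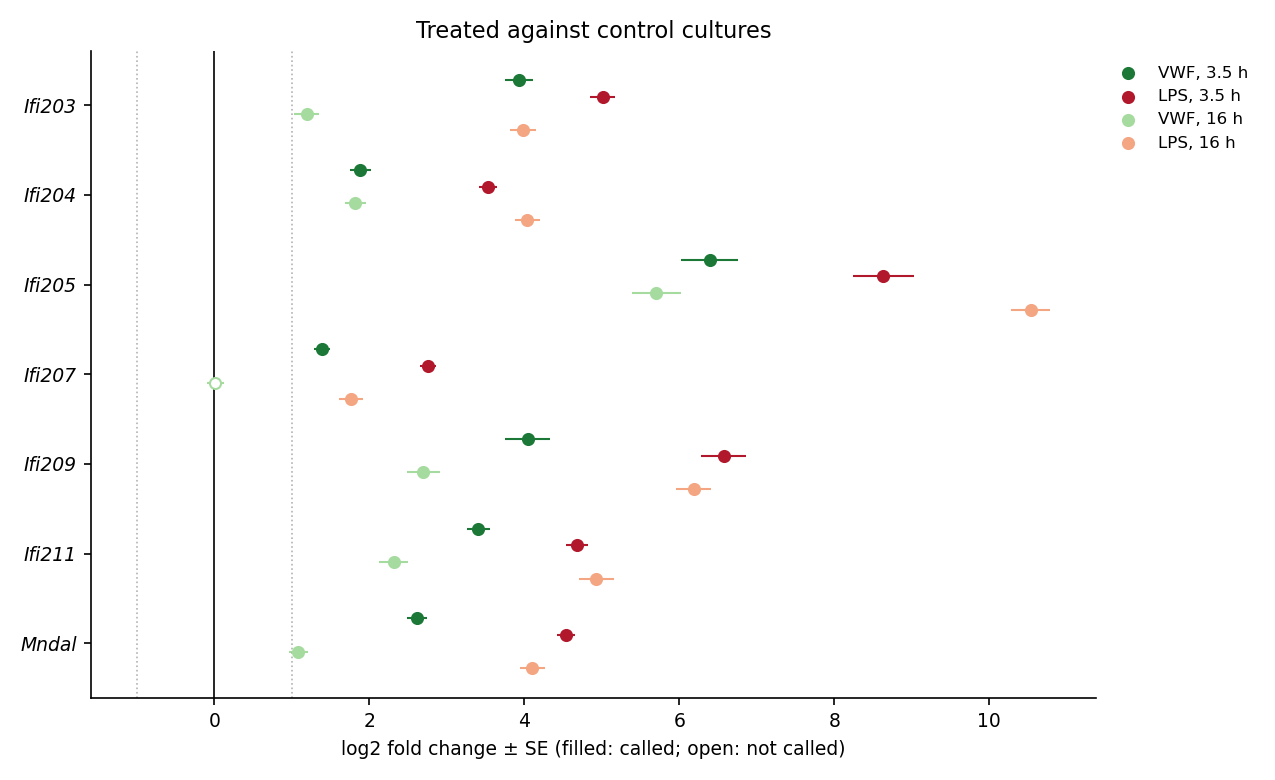
Log2 fold changes ± SE of treated against control cultures for each member, with filled points for called changes, an open point for the change that was not called, and dotted lines at a 2-fold change. LPS values exceed VWF values at both times for each member, and the VWF value of Ifi207 at 16 h is 0.01.

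The members parted between the times. From 3.5 h to 16 h of VWF, 5 of the 7 were called lower (12.2% of 7927 genes tested), and the median log2 fold change was -1.26 over the members and 0.02 over all genes. Ifi203 fell most, from 383 to 608 CPM at 3.5 h down to 55.9, 62.3, 75.2, 56.2 and 50.3 CPM in replicates 1 to 5 at 16 h (log2 fold change -2.97, SE 0.16, adjusted p = 3.63e-08). Ifi205 fell by 2.60 (SE 0.25), Mndal by 1.28, Ifi207 by 1.26 and Ifi211 by 1.24 on the log2 scale. The call of Ifi211 was lost when tested against a change of 2-fold (adjusted p = 0.173). Ifi204 and Ifi209 were not called, since their changes of -0.39 (SE 0.14, adjusted p = 0.0277) and -0.47 (SE 0.19, adjusted p = 0.0439) were under 2-fold, and their cultures at the 2 times overlapped.

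With LPS, 1 of the 7 members was called lower at 16 h than at 3.5 h (13.5% of 6987 genes tested). This was Ifi203, which went from 944, 1014, 1123 and 941 CPM to 427, 375, 435 and 373 CPM (log2 fold change -1.29, SE 0.11, adjusted p = 9.63e-06). Ifi207 was at 579 to 788 CPM and then at 311 to 417 CPM (-0.92, SE 0.13, adjusted p = 2.95e-04), with no overlap but under the threshold. Ifi209 had a value of 0.45 (SE 0.11, adjusted p = 0.00529), and all its cultures at 16 h lay above those at 3.5 h. Ifi204, Ifi205, Ifi211 and Mndal were between -0.22 and 0.15, with adjusted p from 0.0998 to 0.715. The cultures of Mndal did not overlap, with 891 to 1030 CPM at 3.5 h and 685 to 865 CPM at 16 h. Of all genes tested with LPS, 27.85% lay wholly below and 27.38% wholly above their 3.5 h cultures at 16 h.

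In control cultures none of the 6 members tested was called between the times, where 9.11% of 8333 genes were called in either direction. By unadjusted p, 2 of the 6 were under 0.05, and DESeq2 also called 0. Ifi209 had 7.37 to 18.8 CPM at 3.5 h and 14.8 to 30.6 CPM at 16 h (log2 fold change 0.84, SE 0.27, adjusted p = 0.0294), and Ifi204 had a value of -0.35 (SE 0.12, adjusted p = 0.037). Without control replicate 1 at 3.5 h the value of Ifi209 was 1.00 and was called. Ifi205 did not reach 10 TPM in any control culture, and with edgeR's own filter it was called lower at 16 h, by 2.00 on the log2 scale (adjusted p = 0.00169).

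**Figure D5:**
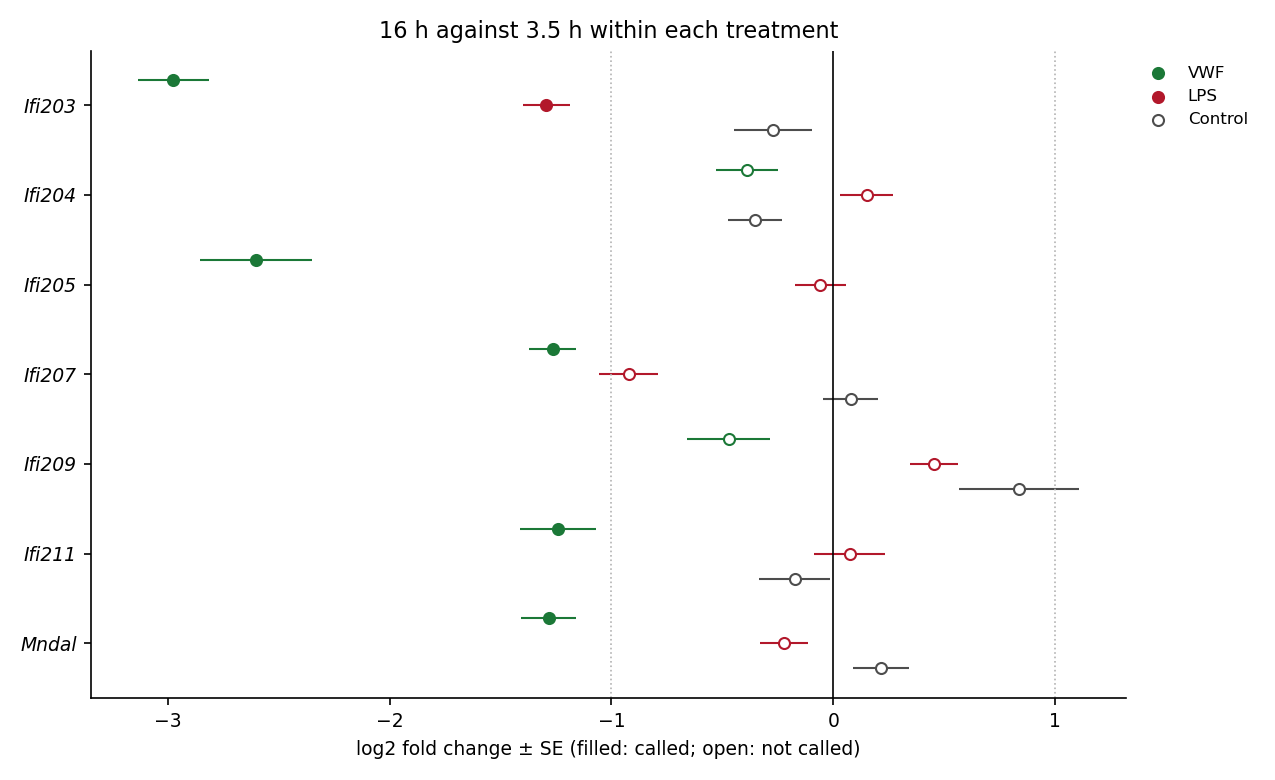
Log2 fold changes ± SE of 16 h against 3.5 h within VWF, LPS and control cultures, with filled points for called changes and open points for the rest; Ifi205 has no control value because it did not pass the filter there. Ifi203 is called lower with both agonists, and Ifi204 and Ifi209 with neither.

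Whether the effect of an agonist on a member differed between the times was tested as an interaction. The effect of VWF was smaller at 16 h for 5 of the 7 members (8.05% of 8660 genes tested were called in this direction). The log2 change in effect was -2.72 (SE 0.24) for Ifi203, -1.51 (SE 0.18) for Mndal and -1.36 (SE 0.16) for Ifi207. It was -1.32 (SE 0.34) for Ifi209 and -1.08 (SE 0.24) for Ifi211. Tested against a change of 2-fold, 2 of these calls held, Ifi203 and Mndal, and those of Ifi207, Ifi209 and Ifi211 were lost (adjusted p = 0.0675, 0.602 and 1.0). For Ifi209 the control level was higher at 16 h by the 0.84 given above, and the VWF level was lower by 0.47. Ifi204 had a value of -0.05 (SE 0.19, adjusted p = 0.891) and Ifi205 of -0.67 (SE 0.44, adjusted p = 0.286). Ifi211 kept its direction but not its call with library totals as the scale (-0.91) or without VWF replicate 4 at 3.5 h (-0.9997), VWF replicate 5 at 16 h (-0.95) or control replicate 5 at 16 h (-0.95).

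The effect of LPS was called smaller at 16 h for Ifi203 (-1.01, SE 0.23, adjusted p = 0.00144) and larger for Ifi205 (1.90, SE 0.40, adjusted p = 8.13e-04). Of 8748 genes tested, 12.8% were called in the first and 13.5% in the second direction. For Ifi205 the LPS levels of the 2 times overlapped, and the control level was 3.47 ± 1.79 CPM at 3.5 h and 0.881 ± 0.220 CPM at 16 h (SD, n = 5). Ifi207 had nearly the value of Ifi203, -0.98 (SE 0.19, adjusted p = 3.42e-04), and was not called. The call of Ifi203 was lost without control replicate 1, 3 or 5 or LPS replicate 2 or 3 at 3.5 h, and without control replicate 2 or 3 or LPS replicate 2 or 4 at 16 h. Its values in those fits were between -0.9963 and -0.9073. It was also lost when tested against a change of 2-fold (adjusted p = 0.833).

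Ratios between 2 members within a culture do not depend on how libraries are scaled. The ratio of Ifi203 to Ifi204 counts in VWF cultures was 0.22 ± 0.24 at 3.5 h and -2.37 ± 0.23 at 16 h on the log2 scale (SD, n = 5). No culture of one time overlapped with the other (two-sided exact permutation test, p = 0.00794, the smallest that 5 against 5 allows, Benjamini-Hochberg adjusted p = 0.0104 over 21 pairs). With VWF, 16 of the 21 member pairs had an adjusted p under 0.05. The 5 others were Ifi203 with Ifi205, Ifi204 with Ifi209, Ifi207 with Ifi211, Ifi207 with Mndal and Ifi211 with Mndal. The log2 ratio of Ifi207 to Mndal was 0.08 ± 0.10 and 0.10 ± 0.06 at the 2 times, and that of Ifi204 to Ifi209 was 0.98 ± 0.20 and 1.05 ± 0.15. With LPS, 13 of 21 pairs passed the exact permutation test (smallest possible p = 0.0286, adjusted 0.0462), among them Ifi203 with Ifi204, whose ratio went from -0.35 ± 0.10 to -1.79 ± 0.30 (SD, n = 4). These ratios were examined after the levels had been seen. The 21 pairs share the same 7 genes, and how many pairs of other genes would pass was not tested. Between the times with VWF, 26.97% of all genes tested lay wholly above and 27.54% wholly below their 3.5 h cultures at 16 h.

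The 14 HIN-200 genes of the cluster were not uniform. Of the 7 genes other than those described so far, 4 passed the filter for VWF against control at 3.5 h. Ifi206, Ifi208 and Ifi213 passed through the VWF cultures alone, so they could enter the test only by being higher, with 1.46, 0.537 and 2.78 CPM in control and 32.8, 14.9 and 45.4 CPM in VWF cultures. Aim2, which passed in control cultures too, was called higher (log2 fold change 1.28, SE 0.13), against 9.18% of all genes tested. Aim2 had 24.5 ± 2.26 CPM in control, 58.3 ± 11.2 in VWF and 156 ± 17.3 CPM in LPS cultures at 3.5 h. At 16 h it had 25.0 ± 4.09 CPM in control and 26.7 ± 3.28 CPM in VWF cultures and was not called (log2 fold change 0.09, SE 0.14, adjusted p = 0.709), as was seen for Ifi207. Between 3.5 h and 16 h of LPS, 1022 of all 6987 genes tested were called higher and 942 (13.5%) lower. From 3.5 h to 16 h of LPS, Ifi206, Ifi208, Ifi213 and Ifi214 were called higher, by 1.28, 1.47, 1.11 and 2.09 on the log2 scale. Ifi214 was under 10 TPM in every LPS culture at 3.5 h, so it could enter this test only by being higher. Ifi202b, which lacks a pyrin domain, was called lower, from 21.7 ± 6.26 to 1.11 ± 0.441 CPM (-4.25, SE 0.33). Ifi202b was under 10 TPM in every LPS culture at 16 h, so it could enter only by being lower.

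The 25 protein-coding genes of other families within 500 kb of the cluster were below 10 TPM in every culture. Of them, 18 are olfactory receptor genes and 11 had no count in any culture.

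Among 15 genes of interferon production and signalling, 14 passed the filter at 3.5 h and 10 were called higher with VWF, as were 10 with LPS. Of all genes tested, 9.18% were called higher with VWF and 12.8% with LPS at that time. Ifnb1, which encodes interferon-β, had 0.0417 ± 0.0559 CPM in control, 3.94 ± 1.30 CPM in VWF and 171 ± 51.4 CPM in LPS cultures at 3.5 h, and at most 0.173 CPM in VWF cultures at 16 h. Its level in LPS cultures at 16 h was 2.96 ± 1.24 CPM. Irf7, a transcription factor induced by interferon, moved the other way, from 264 ± 47.3 to 1041 ± 206 CPM with VWF and from 897 ± 136 to 4733 ± 665 CPM with LPS. Of 12 tested for VWF against control at 16 h, 4 were called higher, against 4.55% of all genes tested. At 3.5 h, 3 of the genes called (Ifnb1, Socs1 and Usp18) were under 10 TPM in every control culture and passed through treated cultures alone. The same held at 16 h for Usp18, 1 of the 4 called with VWF.

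Of 13 cytosolic DNA sensing and inflammasome genes tested, 7 were called higher with VWF and 10 with LPS at 3.5 h, and 3 and 10 at 16 h. Of all genes tested, 9.18% and 12.8% were called higher at 3.5 h, and 4.55% and 15.3% at 16 h. Il1b, called with both agonists at 3.5 h, was under 10 TPM in every control culture of that time and could enter only by being higher. Zbp1, a sensor of left-handed nucleic acid, had 16.2 ± 3.74 CPM in control, 103 ± 22.3 in VWF and 418 ± 43.4 CPM in LPS cultures at 3.5 h. Its level in VWF cultures at 16 h was 213 ± 39.6 CPM. Pycard, the partner of Aim2, was not called for VWF against control at 3.5 h (log2 fold change 0.33, SE 0.19, adjusted p = 0.211) or at 16 h (0.32, SE 0.28, adjusted p = 0.467). Tmem173, which encodes STING, had a value of 0.15 (SE 0.10) with VWF at 3.5 h. With LPS at 3.5 h it was called higher by 1.0024 (SE 0.12), just over the threshold. With LPS at 16 h it was not called (-0.18, SE 0.26, adjusted p = 0.576). Trex1 is listed at 0 in all 28 cultures. Cgas, also on this list, was searched by its older symbol, was not found and has no value here.

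All 15 interferon-induced genes of other families that were listed, among them Isg15, Mx1, Ifit1 and Rsad2, were called higher with VWF and with LPS at both times. The shares of all genes tested that were called higher were 9.18% and 12.8% at 3.5 h, and 4.55% and 15.3% at 16 h. Of the 15 listed genes, 4 at 3.5 h and 7 at 16 h were under 10 TPM in every control culture, so that they could enter only by being higher. The median log2 fold change of the 15 was 5.70 with VWF and 7.89 with LPS at 3.5 h, and 3.56 and 8.37 at 16 h. From 3.5 h to 16 h of VWF, 10 of the 15 were called lower and 1 higher, with a median of -2.45. Among all 7927 genes tested there, 971 (12.2%) were called lower and 725 higher. From 3.5 h to 16 h of LPS, 4 of the 15 were called lower and 1 higher, with a median of 0.10. Among all 6987 genes tested there, 942 (13.5%) were called lower and 1022 higher.

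Over the 28 cultures, the genes whose log2 CPM correlated most with the mean of the 7 members were Slfn5 (Pearson's r = 0.996), Nampt (0.995), Irgm1 (0.995), Cmpk2 (0.995) and Rsad2 (0.993). The cultures share treatments, so r is a description. In the 20 control and VWF cultures the leading genes were Gbp3, Ifit1, Ifit2, Slfn5 and Irgm1, of which Slfn5 and Irgm1 were also in the first list. The gene most like each member was Snx10 for Ifi203, Tor3a for Ifi204, Gbp2 for Ifi205 and Ccdc25 for Ifi207. It was Tap1 for Ifi209, Slfn5 for Ifi211 and Cmpk2 for Mndal. Between members r was between 0.849 for Ifi207 with Ifi209 and 0.988 for Ifi205 with Ifi211, the pair with the largest shared sequence.

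How libraries were scaled moved the values of all genes together. With library totals in place of TMM factors, the median log2 fold change over all genes was -0.54 for LPS against control at 3.5 h and -0.57 at 16 h, against -0.02 and -0.03. It was -0.22 for VWF against control and 0.30 for VWF against LPS at 3.5 h, and 0.44 for VWF against LPS at 16 h. The share of called genes that were higher went from 52.1% to 24.7% for LPS against control at 3.5 h and from 55.2% to 26.0% at 16 h. It went from 62.4% to 48.8% for VWF against control and from 41.2% to 68.8% for VWF against LPS at 3.5 h, from 43.3% to 71.1% for VWF against LPS at 16 h, and from 40.5% to 51.8% for the change in VWF effect. The members called against control at either time, 7, 7, 6 and 7, were as many on that scale.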

How the data were processed

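RNA of 28 cultures of murine BMDMs was sequenced in paired ends of 150 bases. The authors aligned the reads with STAR to GRCm38 (mm10) and deposited whole-number counts per gene, without normalization, for 54532 genes. For the STAR version, gene annotation, strand setting and reads with several matches, no statement was found (not given in the sources used here). Groups and replicate numbers were taken from the labels, and no column belonged to another series (0 columns).

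From the deposited counts, genes reaching 10 TPM in at least 1 culture of a comparison were tested with edgeR 4.0.16 in R 4.3.3 (TMM factors, robust quasi-likelihood F test on the groups compared), with Benjamini-Hochberg adjustment over all genes tested. TPM used GENCODE M21 exon lengths. A call needs an adjusted p under 0.05 and an absolute log2 fold change above 1, as in the study's methods, which used DESeq2. SE is the absolute log2 fold change over the square root of F, and every adjusted p without another name is from this edgeR fit. Effects by time were interaction terms over 4 groups. Promoter sequences came from RefSeq (GRCm38.p6). The fits were tested on simulated data.

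All 7 members are named, and other genes come from lists of family, interferon and DNA sensing genes, from genes within 500 kb, or are the 5 genes most correlated with the members' mean (prior count 2) and the leading ones of each member. The members and lists were chosen with earlier results of these data known. Ratios between members and their exact permutation tests were added after the values had been seen. The 52 pairs of cultures within groups differed by more than sampling noise (chi-square per degree of freedom 15.81 to 659.6). Alternatives were RLE factors, library totals, DESeq2 1.42.0, other filters, 1 fit of all groups, other fold thresholds, a replicate block, leaving out each culture, and windows of 150 bases.

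Same-numbered cultures were compared by the correlation of their deviations from the group means. VWF and LPS cultures at 16 h were the only groups with every pair above 0.1 (4 pairs, 0.16 to 0.78). The labels do not say what a number stands for.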

Additional observations from a re-analysis of the deposited data

Results flagged for a closer look

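Ifi211 in VWF cultures at 16 h had 97.75 CPM in replicate 5 and 161.2 to 176.2 CPM in the other 4 cultures, a gap beyond Dixon's 95% critical value. Of 42 combinations of a member and a group that were examined, this was the only one, and chance alone sets aside about 1 in 20. The same culture was the lowest of its group for all 7 members.

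The effect of VWF differed between 3.5 h and 16 h by the interaction test for 5 members, with log2 changes in effect of -2.72 for Ifi203, -1.51 for Mndal, -1.36 for Ifi207, -1.32 for Ifi209 and -1.08 for Ifi211. Of 8660 genes tested, 8.05% were called in this direction, and 2 of the 5 calls (Ifi203 and Mndal) held against a change of 2-fold. The effect of LPS differed for Ifi203 by -1.01 and for Ifi205 by 1.90, where 12.8% and 13.5% of 8748 genes tested were called in these directions. The call of Ifi203 was lost in 9 fits that left out a culture. The 2 LPS values have opposite signs, and the LPS level of Ifi205 overlapped between the times.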

How the results depend on the processing

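Of the member counts and single values, those against control kept their direction and call under every alternative, except Ifi207 for VWF at 16 h (-0.0243 with library totals, -0.0392 to 0.1152 leaving out cultures) and Ifi203 and Mndal for VWF at 16 h, whose calls ended when tested against a 2-fold change. In no case was the cause tested.

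The 1 call for LPS at 16 h against 3.5 h became 3 without the fold threshold and 1 to 2 leaving out cultures, with Ifi207 at -1.01 without LPS replicate 4 at 16 h. The 0 calls in control cultures became 1 with edgeR's filter, 1 with no filter, 2 without the fold threshold and 0 to 1 leaving out cultures. The 5 calls for the change in VWF effect became 2 when tested against a 2-fold change and 4 to 5 leaving out cultures. The 2 calls for the change in LPS effect became 4 without the fold threshold, 1 when tested against a 2-fold change and 1 to 3 leaving out cultures. In those fits Ifi203 lay between -1.1497 and -0.9073 and Ifi207, called in 5 of them, between -1.0786 and -0.8701. Ifi207 was also called with library totals, with either other filter and in 1 fit of all groups. Signs turned with library totals for Ifi211 from 3.5 h to 16 h of LPS (-0.0041) and for Ifi204 in the VWF effect (0.10). Leaving out cultures, they turned for the latter (-0.1289 to 0.0537), for Ifi205 (-0.1297 to 0.0052) and Ifi211 (-0.1025 to 0.174) with LPS between the times, and for Ifi207 in control cultures (-0.0403 to 0.1377). None of these was called.

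With library totals, VWF against LPS at 3.5 h kept 5 of 7 calls and the change in VWF effect 4 of 5. Windows of 150 bases gave 46.4% shared sequence for Ifi211 and 9.28% for Ifi209. In control and VWF cultures 2 of the 5 genes most like the family were the same. The ratio alternatives, chosen after seeing the data, gave 16 pairs without VWF replicate 1 at 3.5 h and 17 without VWF replicate 5 at 16 h.

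The replicate block changed no call in 87 of 87 values, with 7 members called for VWF against LPS at 16 h. In that comparison alone every same-numbered pair of cultures had a correlation above 0.1, and whether the cultures were paired is not given. Depth limits Ifi205 in control cultures, with as few as 29 counts.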
